A study of Mus musculus with 6 samples.

Results

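Interferon-stimulated genes were examined in RNA of mouse bone marrow cells that had been sorted for the phenotype of long-term haematopoietic stem cells, or LT-HSCs. The list was chosen by function, with earlier results of these data known. It holds 48 gene symbols, of which 46 had a row in the deposited tables of 21851 genes. Mx1 and Mx2 were not analysed here. All 46 were among the 10676 genes tested. All mice were wild type (WT). For 3 months one group ate a control diet (CD) and the other a high cholesterol diet (HCD), and each group has 3 libraries. The labels name no strain, age or sex. They also do not say whether a library is 1 animal, so the p-values cover the spread among libraries, part of which could be technical.

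Interferons are cytokines that warn cells of viral infection. Type I interferons bind the IFNAR1 and IFNAR2 receptor chains, whose kinases JAK1 and TYK2 phosphorylate STAT factors such as STAT2. The complex ISGF3, which holds STAT2 and IRF9, binds the interferon-stimulated response element (ISRE) in the promoters of its target genes. Type II interferon acts through other receptor chains, and many of its target genes carry the gamma-activated site (GAS). Stem cells are known to hold a basal level of many of these antiviral transcripts, and interferon drives dormant mouse HSCs into cycle.

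The depth estimated from the size of 1 read was 19750000 to 20970000 reads or fragments per library, and values are FPKM, fragments scaled by transcript length and library depth. The sort gate was Lin-c-Kit+Sca1+CD34-CD135-. Kit was at 114 to 122 FPKM and Ly6a (SCA1) at 59.4 to 70.0 in these libraries. Against the gate, Cd34 was at 448 to 488 FPKM and Flt3 (CD135) at 99.7 to 115, so the libraries are called by their label. HCD replicate 2 stood apart from the other HCD libraries in long transcripts. Among tested genes of at least 4755 bp its median log2 difference from the CD mean was -0.17, against -0.06 and -0.04 in HCD replicates 1 and 3.

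The ISRE core was searched in windows of 300 bases, from 250 before to 50 after the RefSeq gene start (GRCm38.p6). It was spelled GAAA, any 2 bases, GAAA, and read on both strands. Windows were found for 37 of the 48 genes. The core was present in 18 of 45 windows (40%), against 3.44% of all 32851 windows. The GAS letters TTCNNNGAA, on both strands, were in 22.2% of the members' windows and 8.3% of all. A few windows without the bases after the start are shown because they show where the core lies, alone or repeated, in 3 genes that fell under HCD (Bst2, Oas3, Irgm1) and 2 that did not pass the test (Isg15, Ifit1). The sequences are from RefSeq, 5′ to 3′ on the gene's strand, and capitals mark the core or its reverse complement.
Bst2, minus strand, chr8:71537473-71537722: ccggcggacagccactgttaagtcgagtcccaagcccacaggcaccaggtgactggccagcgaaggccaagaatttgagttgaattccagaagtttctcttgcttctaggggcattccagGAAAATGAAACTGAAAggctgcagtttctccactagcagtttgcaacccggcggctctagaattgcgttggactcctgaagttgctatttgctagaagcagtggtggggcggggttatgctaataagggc
Oas3, minus strand, chr5:120777660-120777909: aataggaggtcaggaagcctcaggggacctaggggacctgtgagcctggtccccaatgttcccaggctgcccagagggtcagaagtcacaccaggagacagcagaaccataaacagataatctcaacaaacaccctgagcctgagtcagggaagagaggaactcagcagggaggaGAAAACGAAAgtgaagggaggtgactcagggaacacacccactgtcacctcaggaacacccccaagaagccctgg
Irgm1, minus strand, chr11:48871421-48871670: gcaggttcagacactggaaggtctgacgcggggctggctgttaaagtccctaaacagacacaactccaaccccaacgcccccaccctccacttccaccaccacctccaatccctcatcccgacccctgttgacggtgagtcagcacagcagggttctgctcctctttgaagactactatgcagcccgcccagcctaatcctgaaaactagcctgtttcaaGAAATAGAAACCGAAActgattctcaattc
Isg15, minus strand, chr4:156200819-156201068: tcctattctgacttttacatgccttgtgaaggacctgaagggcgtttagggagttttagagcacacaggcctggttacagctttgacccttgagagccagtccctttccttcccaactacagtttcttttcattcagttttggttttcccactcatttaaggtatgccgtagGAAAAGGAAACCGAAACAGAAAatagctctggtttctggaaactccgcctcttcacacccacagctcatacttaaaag
Ifit1, plus strand, chr19:34640639-34640888: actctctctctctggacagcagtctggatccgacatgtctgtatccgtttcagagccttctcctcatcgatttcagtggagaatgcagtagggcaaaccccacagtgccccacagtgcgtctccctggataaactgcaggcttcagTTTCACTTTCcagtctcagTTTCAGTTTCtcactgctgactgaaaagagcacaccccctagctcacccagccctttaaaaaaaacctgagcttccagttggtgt

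In Isg15 the 3 matches overlap and begin 78, 72 and 66 bases before the gene start, so that GAAA recurs every 6 bases. Bst2 and Irgm1 each hold an overlapping pair, Oas3 a single match, and Ifit1 a pair that reads on the opposite strand. A GAS match begins 136 bases before the Bst2 start and overlaps its first core. Eif2ak2, another gene that fell, has its match 19 bases after the start. These matches describe letters in a window and are not measured binding sites.

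Under HCD, 11 of the 46 interferon-stimulated genes fell and 0 rose, while 35 did not pass (limma on log2(FPKM + 1), adjusted p under 0.05 over all tested genes). Over all tested genes 7.66% were called lower and 6.28% higher. The falls were moderate. By group means they ran from 15% for Bst2, which encodes tetherin, to 45.7% for Oas2, an enzyme that activates RNase L. The median log2 change of the members was -0.17, against -0.03 over all tested genes, and 36 of 46 were below 0, against 57.9% of all tested genes. At an unadjusted p under 0.05, 25 members were lower and 2 higher, where 18.3% and 12.6% of all tested genes were.

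The lower level was seen in each HCD library. The members' median log2 difference from the CD mean was -0.19, -0.17 and -0.18 in HCD replicates 1, 2 and 3, and 37, 34 and 37 members were below the CD mean. Over all tested genes, the share below the CD mean was 54.2%, 58.6% and 53.4% in the same libraries. All 3 HCD libraries lay below all 3 CD libraries in 23 members (background 22.7%) and above them in 3 (background 15%), which were Ifit2, Lgals3bp and Gbp3. The summed FPKM of the 46 genes was 1051.1, 1057.2 and 1058.1 in CD and 958.0, 971.9 and 958.3 in HCD, so the groups did not overlap. In such bulk samples, fewer cells of a type and less RNA per cell cannot be told apart.

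**Figure D1:**
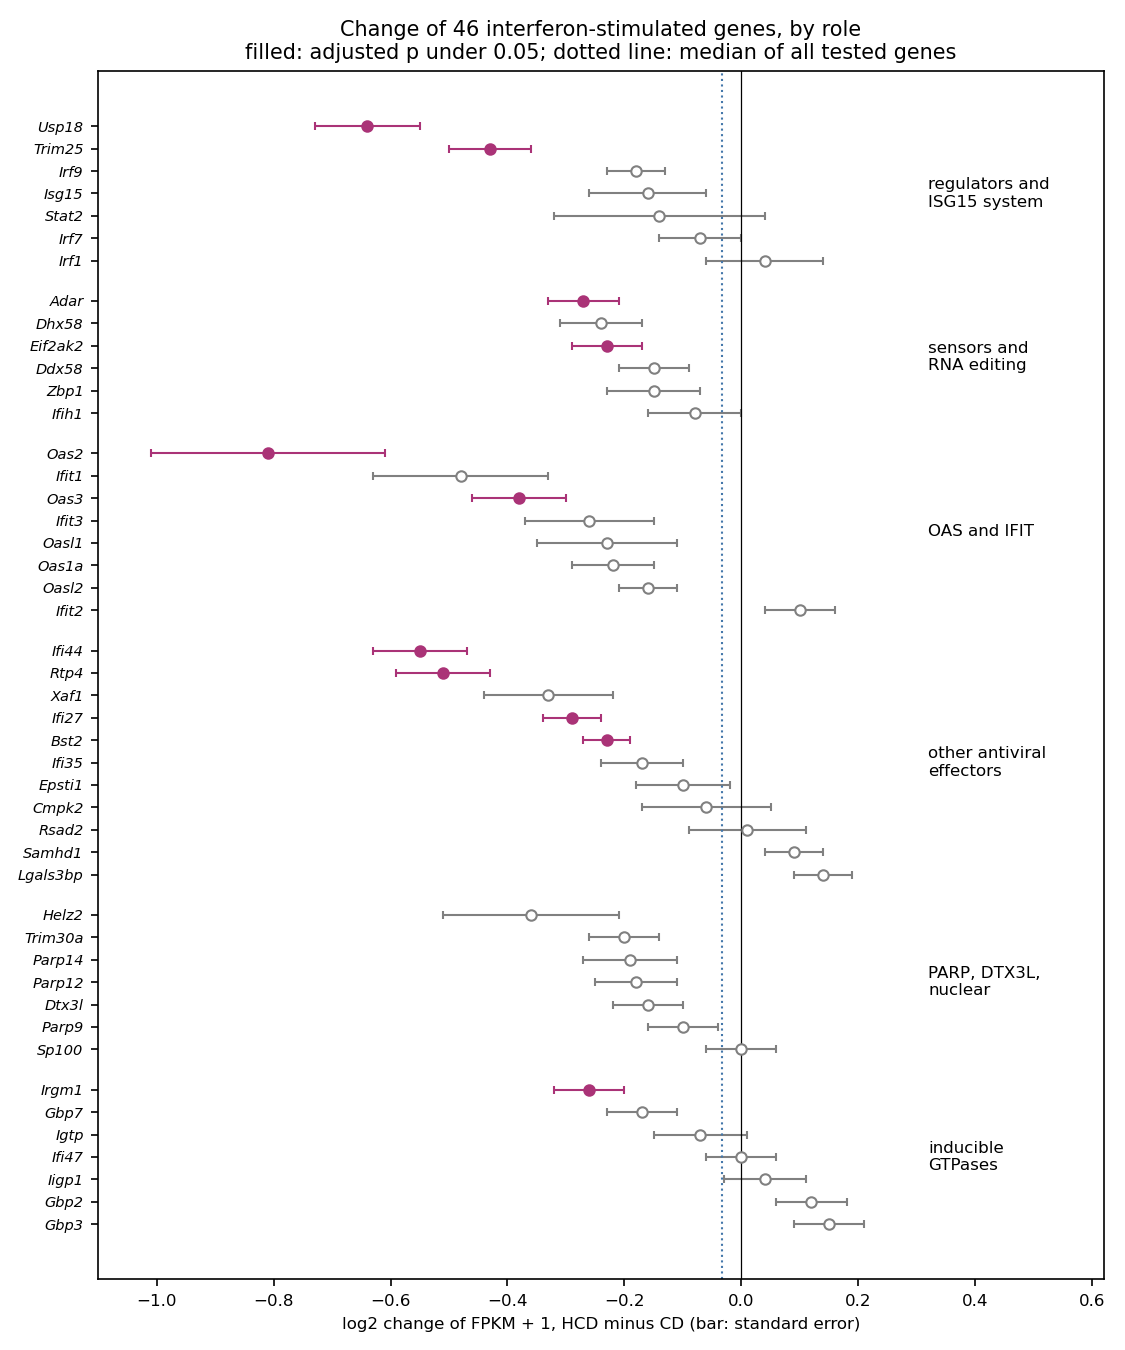
Log2 change of FPKM + 1 (x axis, HCD minus CD) for each of the 46 measured genes, grouped by role, with bars for the standard error; filled points passed an adjusted p of 0.05 and the dotted line is the median of all tested genes. The 11 filled points all lie below 0, the lowest being Oas2 at -0.81. The inducible GTPases run from -0.26 for Irgm1, which is filled, to 0.15 for Gbp3, with a median of 0.00.

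**Figure D2:**
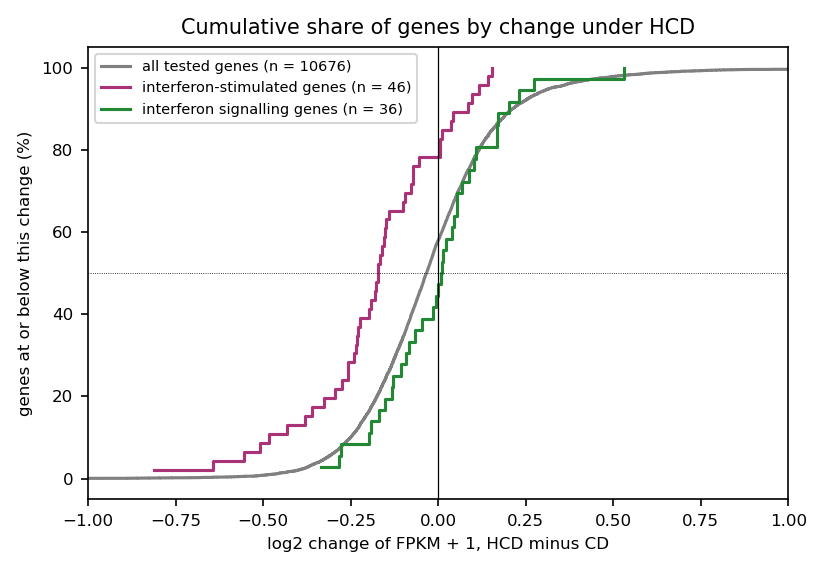
Cumulative share of genes (y axis, percent) at or below each log2 change (x axis) for 46 interferon-stimulated genes, 36 interferon signalling genes and all 10676 tested genes. The curve of the interferon-stimulated genes lies to the left, with a median of -0.17, while that of the signalling genes has a median of 0.01.

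The members were transcribed at moderate levels in both groups. Their mean over the 6 libraries had a median of 18.2 FPKM, against 12.7 for all tested genes, and ran from 0.99 for Ifit3 to 111 for Lgals3bp, which encodes a secreted glycoprotein. Of the 46 genes, 40 averaged between 5 and 50 FPKM. Ifit3, an RNA-binding antiviral protein gene, was at the filter of 1 FPKM, at 1.1, 1.06 and 1.36 in CD and 0.90, 0.94 and 0.61 in HCD, and entered the test through the CD libraries. Zbp1, the sensor gene next above it in level, averaged 4.50 FPKM. Replicates were close, with a median coefficient of variation of 4.41% in CD and 7.69% in HCD. The highest was that of Oas2 in HCD, at 34.4%.

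Among the regulators and the ISG15 system, 2 of 7 genes fell (background 7.66%). Usp18 encodes the protease that removes ISG15 from proteins and also brakes signalling at IFNAR2 (chromosome 6, 121245906 to 121270917, GRCm38). It was at 9.49, 8.42 and 10.5 FPKM in CD and at 5.43, 6.11 and 5.54 in HCD, with every HCD library below every CD library. The log2 change was -0.64 ± 0.09 (SE; limma adjusted p = 0.00398). Trim25, the ubiquitin ligase gene that aids RIG-I signalling (chromosome 11, 88999376 to 89020293), was at 25.5, 23.1 and 23.8 FPKM in CD and 16.7, 17.2 and 19.1 in HCD. The groups did not overlap, and the log2 change was -0.43 ± 0.07 (limma adjusted p = 0.00586).

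The transcription factors in the list did not pass. Irf9, the DNA-binding part of ISGF3, was at 29.6, 30.3 and 30.4 FPKM in CD and 28.0, 25.2 and 26.3 in HCD. Its groups did not overlap, but its test missed the threshold (log2 change -0.18 ± 0.05, limma adjusted p = 0.0548). Stat2, the other specific ISGF3 part, was at 10, 9.31 and 11.8 FPKM in CD and 10.7, 6.54 and 11.3 in HCD. Only HCD replicate 2 was low there. Irf7, which amplifies the interferon response, overlapped between groups, at 17.1, 15.3 and 16.2 against 15.9, 14.1 and 16.1 FPKM. Irf1, a factor induced most by type II interferon and the most abundant regulator here, was at 39.4, 38.7 and 38.3 FPKM in CD and 43.3, 32.9 and 44.9 in HCD. It was above CD in HCD replicates 1 and 3 and below in replicate 2. Isg15 itself, the ubiquitin-like modifier, overlapped as well, at 12.9, 13.3 and 14.9 against 10.5, 12.5 and 13.7 FPKM (log2 change -0.16 ± 0.10, limma adjusted p = 0.308).

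Of the 6 nucleic acid sensors and RNA editing genes, 2 fell (background 7.66%). Adar encodes the enzyme that edits adenosine to inosine in double-stranded RNA and was the most abundant of them (chromosome 3, 89715022 to 89753446). It was at 24.0, 23.5 and 23.8 FPKM in CD and 19.6, 18.2 and 20.6 in HCD, without overlap (log2 change -0.27 ± 0.06, limma adjusted p = 0.0184). Eif2ak2 encodes PKR, the kinase that halts translation on double-stranded RNA (chromosome 17, 78852564 to 78882573). Its CD libraries were at 19.8, 20.7 and 22.1 FPKM and its HCD libraries at 17.2, 18.2 and 17.6, again without overlap (log2 change -0.23 ± 0.06, limma adjusted p = 0.0369). Its call was lost with TMM factors (adjusted p = 0.0688) and when the trend against transcript length was removed (adjusted p = 0.085). The other 4 were Ddx58 (RIG-I), Ifih1 (MDA5), Dhx58 (LGP2) and Zbp1, with log2 changes from -0.24 to -0.08. Of these, Dhx58 missed the threshold (limma adjusted p = 0.0523). It passed with the replicate block (0.0481), with the length trend removed (0.0477) and with a filter of 5 FPKM (0.0493). It failed with quantile normalization (0.0515), 0.1 as pseudocount (0.0531), no trend (0.0638), TMM factors (0.0665) and no filter (0.0826). It also failed without any 1 CD library or HCD replicate 1 (0.122 to 0.154), and passed without HCD replicate 2 or 3. Adar overlaps Chrnb2, and among the regulators Irf7 overlaps Phrf1 and Irf1 overlaps Gm17334, on opposite strands, and whether strand was used in counting is unknown here, so these values are uncertain. Irf9 and Rnf31, Ifi47 and Olfr56, and Igtp and Irgm2 overlap on the same strand.

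In the OAS and IFIT families 2 of 8 genes fell (background 7.66%). The OAS enzymes make 2-5A, the messenger that activates RNase L, and the IFIT proteins bind foreign RNA. Oas2 (chromosome 5, 120730333 to 120749853) was at 10.2, 8.24 and 9.99 FPKM in CD and 6.35, 3.12 and 6.0 in HCD. All HCD libraries were below CD, replicate 2 the furthest, and the log2 change was -0.81 ± 0.20 (limma adjusted p = 0.0338) or -0.54 without HCD replicate 2. Its neighbour Oas3 (chromosome 5, 120753098 to 120777661) was at 10.6, 10.8 and 10.4 FPKM in CD and 8.28, 8.42 and 7.07 in HCD. The groups did not overlap (log2 change -0.38 ± 0.08, limma adjusted p = 0.0157). Oasl2, the most abundant gene of these families, was at 23.9, 24.6 and 23.5 FPKM in CD and 21.2, 22.3 and 20.5 in HCD, below CD in each library but past the threshold only without HCD replicate 2 (adjusted p = 0.0181, against 0.0728).

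No IFIT gene passed. Ifit1 averaged 5.70 ± 0.60 FPKM (SD, n = 3) in CD and 3.85 ± 1.08 in HCD, with HCD replicate 2 at 5.09 overlapping the CD range (log2 change -0.48 ± 0.15, limma adjusted p = 0.065). With the replicate block its adjusted p was 0.0148 and that of Oas1a 0.039, against 0.0801 without it. Ifit2 was at 8.55, 8.18 and 8.41 FPKM in CD and 9.23, 8.91 and 8.98 in HCD, above CD in every library without passing (log2 change 0.10 ± 0.06, limma adjusted p = 0.32). The difference between Ifit1 and Ifit2 was not tested. Ifit, Oas1, Gbp and Trim30 genes have close copies, and how reads were shared among copies is not stated in the labels.

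Of the other antiviral effectors, the largest role group, 4 of 11 measured genes fell (background 7.66%). Differences in share between roles were not tested. Ifi44 encodes a cytoplasmic antiviral protein (chromosome 3, 151730922 to 151749960). It was at 12.5, 13.9 and 12.7 FPKM in CD and 8.57, 9.44 and 7.66 in HCD (log2 change -0.55 ± 0.08, limma adjusted p = 0.00532). Rtp4 encodes a receptor transport protein with antiviral activity (chromosome 16, 23520291 to 23614222), and was at 13.3, 15.6 and 15.2 FPKM in CD and 9.22, 10 and 10.9 in HCD. Its log2 change was -0.51 ± 0.08 (limma adjusted p = 0.00756). In both genes every HCD library was below every CD library.

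Bst2 and Ifi27, which were among the most abundant members, changed less in relative terms. Bst2, whose product tethers budding virions to the cell (chromosome 8, 71534255 to 71537456), was at 82.4, 79.2 and 80.8 FPKM in CD and 68.3, 68.1 and 69.6 in HCD (log2 change -0.23 ± 0.04, limma adjusted p = 0.00938). Ifi27, a gene for a small protein of mitochondria and nuclear envelope (chromosome 12, 103434211 to 103440239), was at 96.2, 87.5 and 96.3 FPKM in CD and 78.0, 75.8 and 74.0 in HCD (log2 change -0.29 ± 0.05, limma adjusted p = 0.00946). Neither gene's groups overlapped. Lgals3bp, the most abundant member, was at 106, 108 and 101 FPKM in CD and 115, 121 and 112 in HCD, above CD in each library without passing (log2 change 0.14 ± 0.05, limma adjusted p = 0.0878). Rsad2, which encodes viperin, and its neighbour Cmpk2 overlapped between groups and had log2 changes of 0.01 and -0.06. The remaining 4 were Samhd1, Xaf1, Ifi35 and Epsti1, with log2 changes from -0.33 to 0.09.

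**Figure D3:**
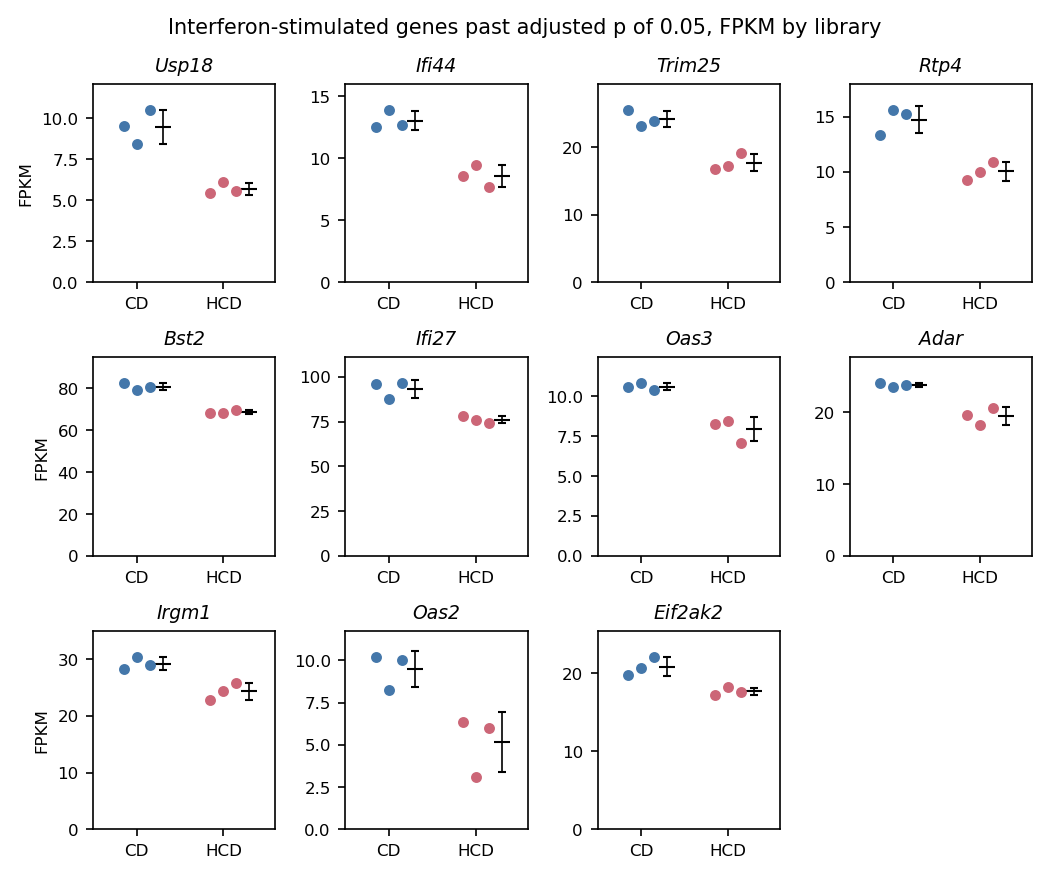
FPKM (y axis, from 0) in each CD and HCD library for the 11 interferon-stimulated genes that passed an adjusted p of 0.05; points are libraries in replicate order and the black bars are the mean ± SD. In each panel all 3 HCD points lie below all 3 CD points, with Oas2 spread most within HCD.

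None of the 7 PARP, DTX3L and nuclear genes passed. All HCD libraries were below CD in 5 of them (background 22.7%). At an unadjusted p under 0.05 (limma) 5 were lower (background 18.3%). PARP9 and DTX3L form a complex that modifies histones and ubiquitin, and the genes Parp9 and Dtx3l overlap on opposite strands. Their log2 changes were -0.10 and -0.16. Parp12 and Parp14, mono-ADP-ribosyl transferase genes, changed by -0.18 and -0.19 on the log2 scale, and Trim30a by -0.20. Helz2, with a transcript of 10109 bp, was at 9.13 and 9.94 FPKM in HCD replicates 1 and 3 but at 5.96 in replicate 2, against 10.4, 10.8 and 11.2 in CD. Sp100, the most abundant of the group and a part of PML nuclear bodies, was at 26.6, 27.3 and 27.8 FPKM in CD and 26.6, 26.0 and 29.5 in HCD, which overlapped (log2 change 0.00 ± 0.06).

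The inducible GTPases attack the vacuoles of intracellular pathogens and respond above all to type II interferon. Of 7, only Irgm1 fell (background 7.66%), and the median log2 change was 0.00. Irgm1, a regulator of the other members of its family (chromosome 11, 48861968 to 48871683), was at 28.3, 30.4 and 29.0 FPKM in CD and 22.8, 24.4 and 25.8 in HCD, without overlap (log2 change -0.26 ± 0.06, limma adjusted p = 0.0253). Ifi47, the most abundant, was at 46.2, 48.4 and 46.3 FPKM in CD and 46.1, 51.7 and 43.9 in HCD, which overlapped. Gbp2 and Gbp3 had log2 changes of 0.12 and 0.15, Gbp7 one of -0.17, and Igtp and Iigp1 ones of -0.07 and 0.04, none past the threshold. The median log2 change of the other 5 role groups ran from -0.25 to -0.16, and the difference between them and the GTPases was not tested.

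The changes were set beside the ISRE core, without a test. Of 17 members with a core in a window 4 fell, with a median log2 change of -0.17. Of 20 members with windows but no core 3 fell, with a median of -0.16. Among tested genes outside the list, 25 of the 305 with a core fell, with a median of -0.03. Of the 7988 without a core 624 fell, with a median of -0.04. Windows for the other 4 genes that fell, Usp18, Rtp4, Oas2 and Ifi27, were not analysed here.

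Around the members, 50 symbols of interferon ligands, receptors, kinases, factors, brakes and sensors were examined. Of these 48 had a row, 36 were tested, 3 rose and 2 fell, and the median log2 change was 0.01. This share of calls was close to that of all tested genes (13.9% in both directions). The 8 type I and III ligand genes in the list were listed at 0 in all 6 libraries, and Ifng at 0 in 5 libraries and 0.17 FPKM in HCD replicate 3. The receptor and kinase genes of the type I pathway overlapped between groups. Ifnar1 averaged 14.3 ± 0.44 FPKM in CD and 14.2 ± 0.79 in HCD, and Ifnar2 30.7 ± 0.94 and 31.0 ± 1.07. Jak1 averaged 70.3 ± 0.47 and 70.0 ± 2.52 FPKM, and Tyk2 15.5 ± 0.72 and 15.9 ± 0.65. Their log2 changes lay between -0.01 and 0.04, with standard errors of 0.04 to 0.06.

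Among the signalling genes that fell, Traf3, an adaptor upstream of interferon genes, was at 9.50, 9.66 and 9.49 FPKM in CD and 7.40, 7.94 and 7.67 in HCD (log2 change -0.28 ± 0.06, limma adjusted p = 0.0221). That call was lost with the length trend removed (adjusted p = 0.137) and with quantile normalization (adjusted p = 0.0504).

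Socs3, a brake on STAT3 signalling, rose, from 31.2, 29.6 and 31.0 FPKM in CD to 49.6, 37.9 and 47.4 in HCD. HCD replicate 2 was the lowest of the 3 and still above all CD libraries (log2 change 0.53 ± 0.09, limma adjusted p = 0.00914). Irf5 rose from 7.95 ± 0.28 to 9.81 ± 0.34 FPKM, with every HCD library above every CD library (log2 change 0.27 ± 0.07, limma adjusted p = 0.028). The Toll-like receptor adaptor gene Myd88 rose from 25.5 ± 1.04 to 30.1 ± 0.66 FPKM (log2 change 0.23 ± 0.05, limma adjusted p = 0.0217). Socs1, the brake on type I and II signalling, overlapped between groups at 2.02 ± 0.58 and 1.78 ± 0.26 FPKM. With the replicate block 8 genes of this list passed instead of 5, adding the type II receptor chain gene Ifngr1 (adjusted p = 0.0345), Ptpn11 (0.0416) and Tlr7 (0.0437). Over all 10676 tested genes 1873 were called with the block and 1488 without it.

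**Figure D4:**
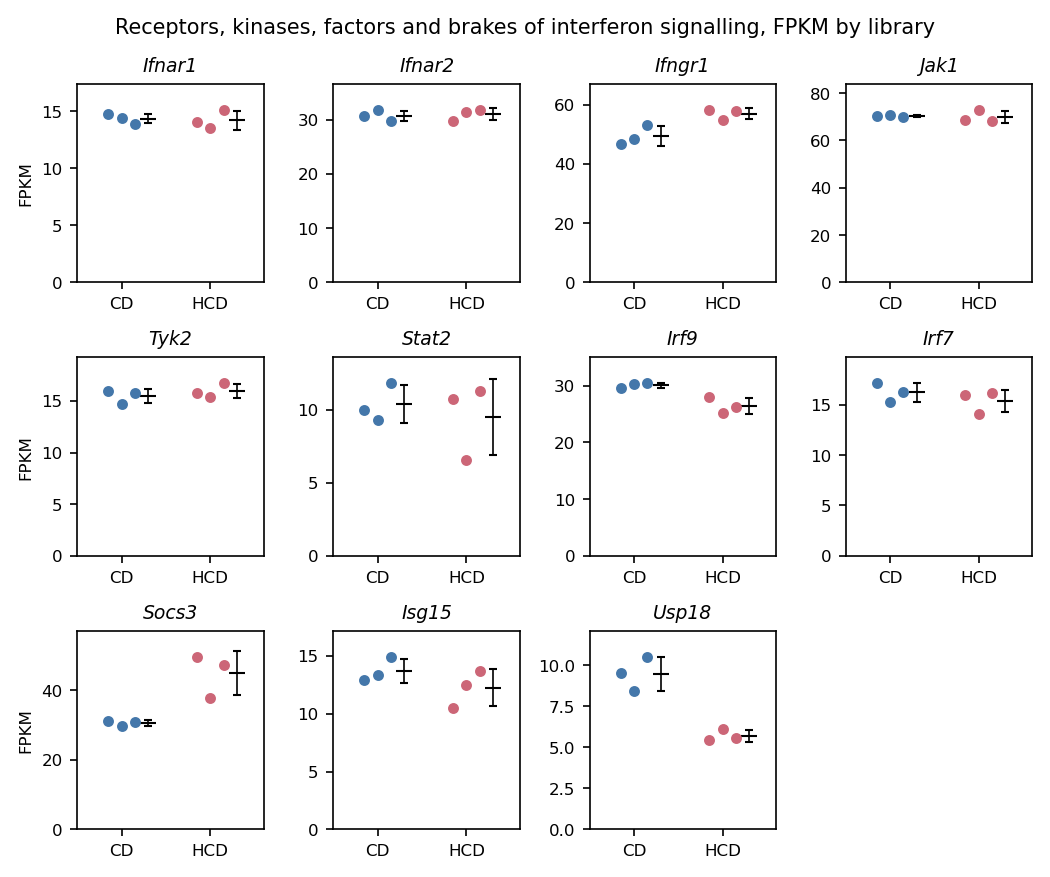
FPKM (y axis, from 0) in each CD and HCD library for 11 genes of interferon signalling, from receptors to brakes; points are libraries in replicate order and the black bars are the mean ± SD. Ifnar1, Ifnar2, Jak1 and Tyk2 overlap between groups, Usp18 and Irf9 lie lower in HCD, and Socs3 and Ifngr1 lie higher. Of these, Irf9 and Ifngr1 did not pass (limma adjusted p = 0.0548 and 0.0519).

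Leaving out 1 library changed the counts. Without CD replicates 1, 2 and 3 in turn, 4, 6 and 4 members were called, all lower, where 1.67%, 2.27% and 2.07% of all tested genes were lower. Ifit3 was not tested there. Without HCD replicate 1 there were 8 calls (background 3.27% lower) and without HCD replicate 3 there were 11 (5.54%). Without HCD replicate 2 there were 22, of which 21 were lower (14.2%) and 1, Irf1, higher (11%). With all libraries, 10 members fell with TMM factors (5.59%), 11 with the length trend removed (5.66%) and 14 with the replicate block (9.67%). Usp18, Trim25, Rtp4 and Ifi44 kept their calls in all 6 of these fits, as did Socs3. Bst2 and Ifi27 lost theirs without CD replicate 1 or 3 (highest adjusted p = 0.0567 and 0.0546). Oas2 and Oas3 lost theirs without any 1 CD library (highest 0.125 and 0.07), and Adar and Irgm1 also without HCD replicate 1 (highest 0.0812 and 0.104). Eif2ak2, Irf5, Myd88 and Traf3 passed only without HCD replicate 2, with highest adjusted p of 0.142, 0.113, 0.0917 and 0.0894. The members' median log2 change lay between -0.18 and -0.16 in the 6 leave-out fits.

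Markers of other cell types were set beside these results. The background for their calls was 6.28% higher and 7.66% lower over all tested genes. Plasmacytoid dendritic cells carry many of these transcripts, Bst2 among them. Of 9 markers of those cells outside both interferon lists, 5 were under 1 FPKM in all 6 libraries, among them Siglech at 0.10 to 0.30, and 1 of 4 tested, Ccr9, was called lower. Ccr9 was under 1 FPKM in every HCD library and entered the test only through CD, where it is high. Their summed level was 15.1 to 18.9 FPKM in CD and 15.1 to 17.7 in HCD. Of 13 monocyte and macrophage markers 9 were tested, 3 rose (Csf1r, Cd68 and Ccr2) and 3 were called lower (C1qa, C1qb and Vcam1). Csf1r and Cd68 lost their calls without any 1 CD library (highest limma adjusted p = 0.068 and 0.145), and Cd68 also without HCD replicate 3. Ccr2 kept its call in each leave-out fit. The sum of the 13 was 172.9 to 183.1 FPKM in CD and 186.7 to 226.6 in HCD. Most of it was Lyz2, at 142 to 150 FPKM in CD and 153 to 191 in HCD, which did not pass (limma adjusted p = 0.0819). Adgre1, Ms4a7 and Fcgr1 were under 1 FPKM in all 6 libraries. C1qa, C1qb and Vcam1 were likewise under 1 FPKM in every HCD library and passed the filter only through CD. The summed level of 11 mature neutrophil markers was 13.2 to 13.4 FPKM in CD and 42.1 to 50.7 in HCD, and Ly6g was at 0 in 4 of the 6 libraries. Of these markers 6 were tested and called higher, but Lcn2, Camp and Retnlg were under 1 FPKM in every CD library and passed the filter only through HCD. Ngp, at 0.90, 1.05 and 1.19 FPKM in CD, also needed the HCD libraries to pass it. Of 9 T and NK cell genes 3 were tested. Nkg7 rose, at 103, 102 and 107 FPKM in CD and 134, 148 and 126 in HCD. Klrb1c was called higher after passing the filter only through HCD. Cd4 was called lower, at 2.04, 2.28 and 1.72 FPKM in CD and 0.99, 0.87 and 1.49 in HCD. Cd4 needed the CD libraries, where it is high, to pass the filter. Its call was lost without a filter (limma adjusted p = 0.0674). The sum of these 9 genes was 105.1 to 110.1 FPKM in CD and 128.8 to 150.8 in HCD, and Cd3e was at 0 in all libraries. Of 8 B cell genes 4 were tested and 1, Igll1, was called lower after passing only through CD, with sums of 27.8 to 37.2 FPKM in CD and 29.1 to 31.5 in HCD. Of 8 erythroid genes 3 were tested and Hbb-bt fell, with sums of 9.5 to 12 and 8.4 to 9.1 FPKM. Hbb-bt lost its call without any 1 CD library or HCD replicate 1 (highest limma adjusted p = 0.0862). Of 9 endothelial and stromal genes 3 were tested, Pecam1 and Pdgfrb rose and Emcn fell, with sums of 59.4 to 62 and 71.1 to 73.9 FPKM. The other 6, among them Cdh5 and Kdr, were under 1 FPKM in all libraries. Of 12 genes of the sort gate and stem cell identity 11 were tested. The list includes Cd34 and Flt3, which the gate excludes. Slamf1 rose and 3 fell, among them Hlf and Fgd5. Hlf lost its call with TMM factors (limma adjusted p = 0.0642) and with the length trend removed (0.164). Fgd5 lost its call with the length trend removed (limma adjusted p = 0.056). The sum of the 12 genes was 967.0 to 993.0 FPKM in CD and 929.2 to 954.2 in HCD. Cd34 alone was at 448 to 488 FPKM over the 6 libraries. The part of any of these cell types in the falls was not tested.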

How the data were processed

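RNA sequencing of sorted bone marrow cells gave 1 table per library, 3 for CD and 3 for HCD. Extraction used an RNeasy Micro kit and libraries a TruSeq Stranded mRNA kit, per the labels' protocols. The submitters' processing notes name fastp, HISAT2, StringTie and the builds GRCm38 and mm10. No source used here gives versions, annotation, filters or the use of strand in counting. Headers hold only a sample name, so that the unit of the deposited tables, FPKM, was inferred from their values. Of 21878 rows, 27 held a date in place of a symbol (0.127% of the FPKM) and were left out. Of 2108 low genes, 1391 (66%) lay at whole multiples of 1 read (tolerance 0.02), which gave the depth estimate. Count models were not applied to FPKM.

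Groups were compared with limma 3.58.1 (under R 4.3.3) on log2(FPKM + 1) with trended, robust empirical Bayes variances, two-sided, with no covariate and Benjamini-Hochberg adjustment. Genes had to reach 1 FPKM in 3 or more libraries. A fold on this scale understates the change of low genes. The script was tested on simulated data. Positions and lengths (longest transcript) are from GENCODE vM21 on GRCm38. Deviations from the group means correlated at 0.103, 0.292 and 0.166 between same-numbered CD and HCD libraries, and at -0.250 to 0.098 between other pairs. The value for number 1 was close to the highest of the other pairs, so these correlations do not settle whether numbers pair. The labels do not say that numbers pair, so a fit with the number as a block was an alternative. The others were quantile or TMM scaling, removal of the length trend, 0.1 as pseudocount, a filter at 5 FPKM or none, untrended variances, and leaving out each library.

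The members, lists and tests were chosen with earlier results of these data known. Library values are given for members past the threshold, the most abundant member of each role, Stat2, Irf9, Irf7, Irf1, Isg15 and Usp18, and the called signalling genes with Ifnar1, Ifnar2, Jak1 and Tyk2. Some genes of these lists are counted but not reported by name here. Values given for other genes were chosen after they were seen.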

Additional observations from a re-analysis of the deposited data

How the results depend on the processing

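The count of all genes called (1488, of which 670 were higher and 818 lower) went from 435 to 2672 when 1 library was left out. After TMM scaling 785 genes were higher and 597 lower, and after removal of the length trend 775 and 586. The count of interferon-stimulated genes called (11) went from 4 to 22 in the same leave-out fits and from 9 to 14 over the other alternatives, with 0 higher in each of those. It was 10 with TMM factors, 11 with the length trend removed and 14 with the replicate block, and the block ended no call. Oas2 lost its call without a filter (adjusted p = 0.0834) and with no trend in the variance. Eif2ak2 lost its call without a filter, with quantile normalization, TMM factors, the length trend removed and no trend. The count of signalling genes called (5) went from 2 to 10 in the leave-out fits and was 8 with the replicate block. The count over all genes went from 435 to 2672 in the same leave-out fits and was 1873 with the block. No called gene of either list changed direction under any alternative run. Fewer libraries also mean less power. Depth was known only as an estimate, and Ifit3, at about 1 FPKM, was the member it limits most.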
